A study of Caenorhabditis elegans with 19 samples.

Results

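Mitochondrial ribosomal protein genes were followed in RNA from dissected gonads of Caenorhabditis elegans in which a protein needed to make cytosolic ribosomes was depleted. The genes were chosen by symbol alone, as protein-coding genes whose symbol starts with mrpl- (large subunit) or mrps- (small subunit). This gave 70 of 19985 protein-coding genes, 41 mrpl and 29 mrps, and all 70 were present in both deposited tables.

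The 19 libraries come from young adult hermaphrodites of 3 strains, each carrying a degron tag on 1 protein, so that the plant hormone auxin directs that protein to breakdown. Depletion targeted RPOA-2, an RNA polymerase I subunit, in strain ESC332, GRWD-1, a chaperone of ribosome assembly, in strain ESC422, and TSR-2, also labelled a chaperone of ribosome assembly, in strain ESC420. Late L4 animals were kept for 18 h at 20 °C on 1 mM auxin or on the ethanol solvent alone, and each replicate held 20 pooled gonads. There were 4 ethanol and 4 auxin libraries for RPOA-2, 3 and 3 for GRWD-1, and 2 and 3 for TSR-2. The ethanol controls carry the same degron allele as the auxin animals. No library of a strain without a degron was analysed here, so an effect of auxin itself and an effect of the depletion cannot be told apart. The labels do not give the promoter that drives the plant F-box protein the system needs, nor whether replicates were separate cultures, and p-values then measure the spread between these samples.

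Mitochondria carry their own ribosomes, which translate the few messages encoded by mitochondrial DNA, nearly all of them core subunits of the respiratory chain. The ribosomal RNAs of that particle are transcribed inside the organelle, not by RNA polymerase I, whereas its proteins are encoded in the nucleus, made on cytosolic ribosomes and imported. The germline is rich in mitochondria, which oocytes stockpile for the embryo.

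Protein-coding totals ran from 1582308 to 8526501 counts per library in the RPOA-2 and GRWD-1 strains and from 1903452 to 3950086 in 4 of the TSR-2 libraries. The fifth, TSR-2 auxin replicate 3, held 43578, so that 3 counts in it equal 68.8 CPM (counts scaled to the library size). This floor leaves out the TMM factor by which the CPM levels below were also scaled. In that library 38 of the 70 genes had fewer than 3 counts and 17 had none. Counts are amplified reads without molecular identifiers, so such floors cover counting error only. RNA from the tagged gene itself passed the test in no strain: log2 change 0.29 for rpoa-2, 0.30 for grwd-1 and 0.88 for tsr-2 (adjusted p 0.277, 0.390 and 0.0627, edgeR), and since the tag acts on protein this RNA does not show whether depletion occurred. All 12 listed germline markers were detected, and their summed level ran from 11369 to 14448 CPM in GRWD-1 ethanol and from 11277 to 14507 CPM in GRWD-1 auxin. Of those 12, only syp-1, a synaptonemal complex gene, passed the test, and it was higher in RPOA-2 and TSR-2 auxin (log2 change 0.56 and 1.096, adjusted p 0.0116 and 0.0113, edgeR).

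In ethanol gonads the mitochondrial ribosomal protein genes were expressed at moderate levels that differed widely from gene to gene. In the RPOA-2 strain their median level was 46.4 CPM per kilobase of exon, with a range of 9.31 to 188, against 29.1 for all genes tested and 1881 for the cytosolic ribosomal protein genes. The medians of the 2 subunits were 45.8 for mrpl and 46.5 for mrps. The other strains gave medians of 46.2 (GRWD-1) and 43.8 (TSR-2) CPM per kilobase. The TSR-2 value rests on fractional counts and is not directly comparable with the others.

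The genes at the top of the order were mrpl-51 at 188 ± 21.7 CPM per kilobase (SD, n = 4), mrps-17 at 138 ± 27.8, mrpl-28 at 122 ± 26.1 and mrpl-47 at 113 ± 20.5. At the bottom were mrps-24 at 9.31 ± 3.19, mrps-21 at 10.9 ± 3.77, mrpl-42 at 13.2 ± 2.87 and mrpl-22 at 14.3 ± 7.21. Neighbours in the order could hardly be separated, since in 1 of 69 adjacent pairs the gap exceeded the pooled SD of the pair. The order was much the same between strains: 9 of the 10 highest genes in RPOA-2 ethanol were also among the 10 highest in GRWD-1 ethanol, and Spearman's rho over the 70 genes was 0.96, a description over genes that share libraries.

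**Figure D1:**
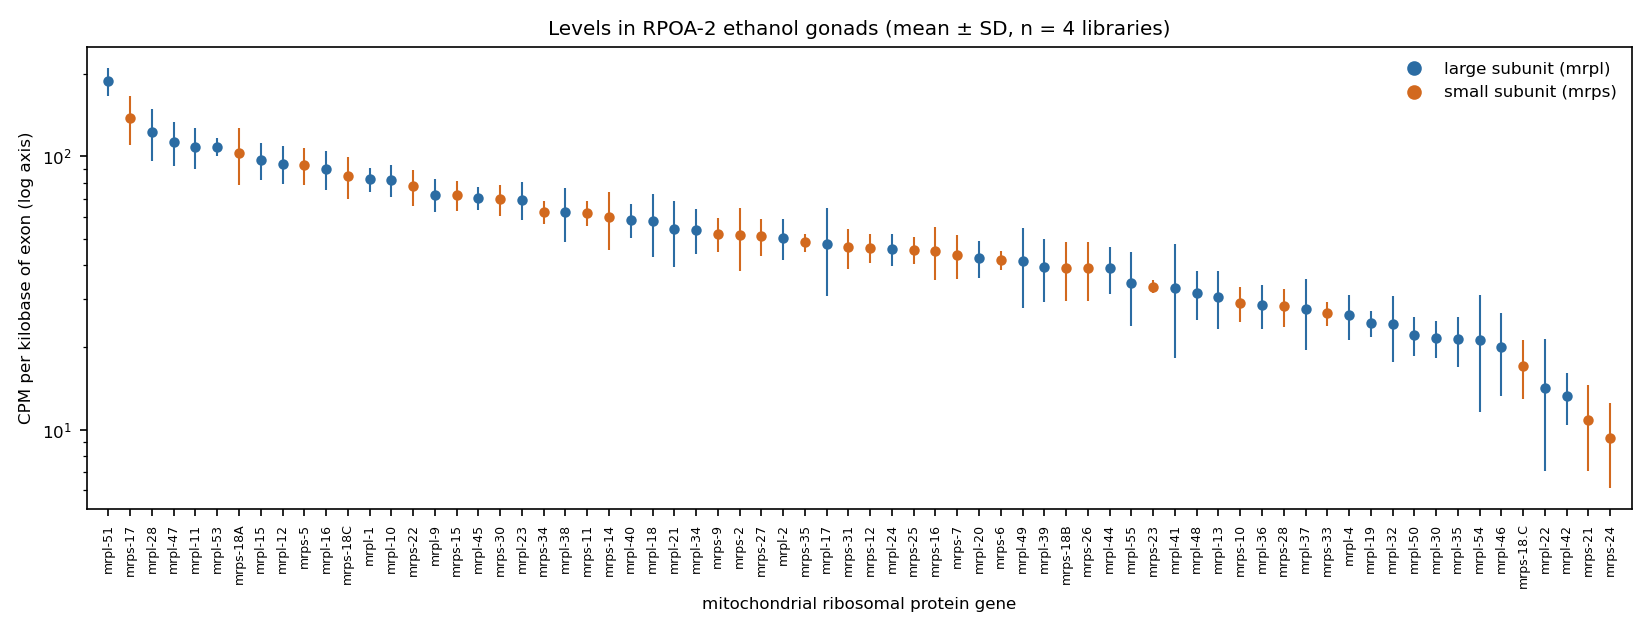
Level of each of the 70 mitochondrial ribosomal protein genes in RPOA-2 ethanol gonads, in CPM per kilobase of exon on a log axis, as mean ± SD over 4 libraries and coloured by subunit. The levels fall from 188 for mrpl-51 to 9.31 for mrps-24 with large and small subunit genes intermixed.

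The genes were short and spread over the autosomes. Their median exon length was 755 bases, against 1644 for genes tested in the RPOA-2 strain. Chromosome III held 22 of them (31.4%, against 19.5% of genes tested), and the X chromosome held 0, where 11.3% of genes tested lie. A total of 22 (31.4%) began within 150 bases of, or inside, the gene upstream on the same strand, against 15.8% of genes tested. Such close spacing is common among worm genes that are transcribed together, but operon annotation was not used here. One such pair is made of members, mrps-2 and mrpl-4 on chromosome V with 105 bases between them. mrps-22 lies 105 bases downstream of dap-3, the gene for a further small-subunit protein that the choice by symbol leaves out.

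Counting of some members is uncertain. The strand setting of the counting is not given in the sources used here, and 14 members overlap a gene on the other strand, among them mrpl-34 with aha-1, mrpl-10 with slc-25A32 and mrps-35 with sws-1. In 58 of 70 members the fractional count, which includes reads that map to several places, was within 2% of the unique count. It was 3.44 times as high for mrpl-44, 2.50 times for mrpl-42 and 1.17 times for mrps-14. For mrps-23, which overlaps prp-40 on the other strand, it was lower, at 0.50 times the unique count.

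When RNA polymerase I was depleted through RPOA-2, few mitochondrial ribosomal protein genes passed the test, and those that did were higher. The 3 genes that passed an adjusted p under 0.05 (edgeR, adjusted over all 7881 genes tested) were mrpl-9, mrpl-45 and mrps-5. These are 3 of 70 members, beside 2.56% of all genes tested that were higher. No member was lower (0 of 70, beside 1.22% of all genes tested). At an unadjusted p under 0.05, 13 members were higher and 0 lower, beside 11.9% and 7.33% of all genes, and DESeq2 gave the same 3 higher and 0 lower, beside 4.11% and 3.25%. In these bulk libraries a change in the number of cells of a type and a change in RNA per cell cannot be told apart.

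mrpl-9 encodes the counterpart of a bacterial large-subunit protein of the same number (WBGene00015025, chromosome I, 10732543 to 10733666, minus strand, WBcel235). Its level in the ethanol libraries was 81.1, 60.3, 64.3 and 64.5 CPM, and in the auxin libraries 123, 130, 132 and 89.3 CPM. The groups did not overlap, although auxin replicate 4 lay close to the highest control. The log2 change was 0.82 ± 0.151 SE (adjusted p 0.0207, edgeR).

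mrpl-45 (chromosome III, 1196389 to 1202008, minus strand) encodes a protein that in mammals lies at the exit of the peptide tunnel and has no bacterial ribosomal counterpart. It stood at 148, 143, 138 and 171 CPM in ethanol and 240, 234, 204 and 239 CPM in auxin. Every auxin library was above every ethanol library, and the log2 change was 0.61 ± 0.0990 SE (adjusted p 0.0168, edgeR).

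mrps-5 (chromosome V, 12563487 to 12565801, plus strand) encodes the counterpart of a bacterial small-subunit protein that lies near the decoding site. It stood at 152, 106, 143 and 146 CPM in ethanol and 225, 225, 205 and 185 CPM in auxin. The groups were again apart, with the lowest control, replicate 2, well below the others, and the log2 change was 0.62 ± 0.125 SE (adjusted p 0.0255, edgeR).

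The log2 changes of these 3 genes varied little over the 17 alternatives run, from 0.73 to 0.91 for mrpl-9, 0.56 to 0.68 for mrpl-45 and 0.49 to 0.71 for mrps-5, but their calls were lost with several libraries. All 3 held without ethanol replicate 2 or auxin replicate 4. Leaving out auxin replicate 1, auxin replicate 2 or ethanol replicate 3 gave 0 higher genes, and leaving out auxin replicate 3, ethanol replicate 1 or ethanol replicate 4 gave 1. Calls over all genes in these fits are not given here, so a loss among members cannot be told from a general one. With replicates 1 to 3, which form 1 series of library numbers, 2 were higher, and the other series holds 1 library per group and could not be tested alone.

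As a family the 70 genes lay slightly above the rest in the RPOA-2 strain. Their median log2 change was 0.19 (0.20 for mrpl, 0.18 for mrps), against -0.01 for all genes tested, and 55 of 70 had a positive change, beside 48.4% of all genes. Without ethanol replicate 2 the median of the members was 0.11 and that of all genes 0.02. In 10 members every auxin library was above every ethanol library, beside 8.40% of all genes, and in 0 it was below, beside 4.53%. Among members at a mean of at least 10 CPM the largest downward values were those of mrps-33 (-0.57), mrps-9 (-0.36), mrpl-55 (-0.36) and mrpl-35 (-0.35), and their adjusted p ran from 0.300 for mrps-9 to 0.625 for mrpl-35.

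The largest number of members was called in the GRWD-1 strain. At the same threshold 10 members were higher and 0 lower, beside 1.21% and 1.48% of 6948 genes tested. The small subunit contributed mrps-2, mrps-17, mrps-7, mrps-5, mrps-35 and mrps-27, and the large subunit mrpl-9, mrpl-23, mrpl-34 and mrpl-10. With an unadjusted p under 0.05 there were 31 higher and 0 lower members, beside 9.18% and 8.59% of all genes, and DESeq2 gave 12 higher and 0 lower, beside 2.55% and 3.45% of all genes. With the replicate number as a block, 27 members were higher, and they include the same 10, while 0 were lower, beside 7.18% and 6.85% of all genes in that fit.

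mrps-2 (WBGene00020718, chromosome V, 8465686 to 8467159, plus strand) had the largest rise among the members in this strain. Its level was 39.6, 33.4 and 42.1 CPM in the ethanol libraries and 94.1, 117 and 112 CPM in the auxin libraries. The lowest auxin library was more than double the highest control, and the log2 change was 1.49 ± 0.177 SE (2.81-fold, adjusted p 0.00309, edgeR). Its close neighbours did not pass the test: natc-1, which ends 116 bases upstream, had a log2 change of 0.15 (adjusted p 0.681), and mrpl-4, 105 bases downstream, of 0.11 (adjusted p 0.903, edgeR).

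mrps-17 (WBGene00015487, chromosome III, 6431042 to 6431798, minus strand) is among the most highly expressed members. It stood at 66.1, 66.9 and 55.1 CPM in ethanol and 176, 162 and 141 CPM in auxin. All auxin libraries were far above the controls, and the log2 change was 1.35 ± 0.163 SE (2.55-fold, adjusted p 0.00309, edgeR). mrps-17 and mrps-2 encode counterparts of bacterial small-subunit proteins of the same numbers.

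mrps-7 (chromosome IV, 14766773 to 14767730, minus strand), whose bacterial counterpart organises the head of the small subunit, stood at 45.8, 29.8 and 31.2 CPM in ethanol and 86.6, 92.7 and 77.5 CPM in auxin. The log2 change was 1.27 ± 0.206 SE (adjusted p 0.00913, edgeR). The groups were apart, and the spread of the controls came mainly from replicate 1.

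mrpl-9 stood at 42.0, 57.5 and 49.8 CPM in ethanol and 109, 129 and 124 CPM in auxin. Here, too, the groups did not overlap, with a log2 change of 1.27 ± 0.173 SE (adjusted p 0.00475, edgeR). mrps-5 stood at 126, 130 and 104 CPM in ethanol and 235.08, 234 and 222 CPM in auxin. Its auxin libraries were nearly level, and the log2 change was 0.94 ± 0.148 SE (adjusted p 0.00847, edgeR).

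The remaining calls were rises of 1.09 or less on the log2 scale. mrpl-23, whose bacterial counterpart lies at the exit of the peptide tunnel, stood at 33.8, 33.8 and 30.8 CPM in ethanol and 64.6, 60.7 and 83.9 CPM in auxin (log2 change 1.09 ± 0.200 SE, adjusted p 0.0169, edgeR). mrpl-34 stood at 38.1, 38.8 and 35.7 CPM in ethanol and 71.5, 82.5 and 69.2 CPM in auxin (log2 change 0.99 ± 0.179 SE, adjusted p 0.0160, edgeR). In both genes the groups were well apart and the controls close together. The log2 change was 0.79 for mrpl-10, whose bacterial counterpart forms the base of the ribosomal stalk, 0.75 for mrps-35 and 0.69 for mrps-27, a pentatricopeptide-repeat protein in mammals, with adjusted p of 0.0440, 0.0389 and 0.0389 (edgeR). mrpl-34, mrpl-10 and mrps-35 are among the members that overlap a gene on the other strand.

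**Figure D2:**
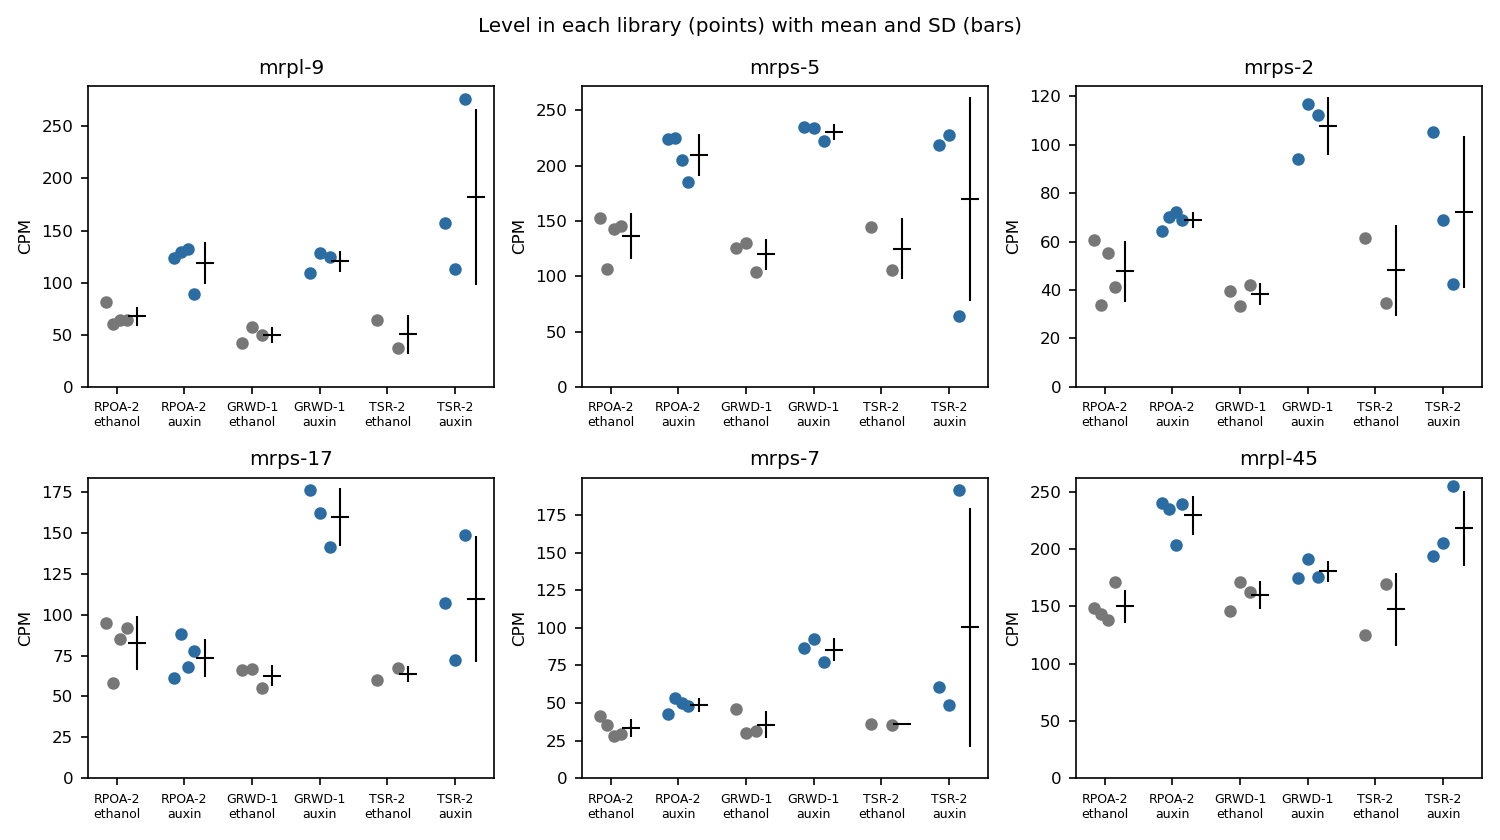
Level of 6 members in each library, in CPM, for ethanol (grey) and auxin (blue) in each strain, with the mean and SD beside the points. Auxin libraries of mrps-17 reach 141 to 176 CPM in the GRWD-1 strain but overlap the controls in the RPOA-2 strain.

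Calls in this strain also moved with single libraries. Leaving out ethanol replicate 3 gave 3 higher members, ethanol replicate 2 gave 4, ethanol replicate 1 gave 5, auxin replicate 1 or auxin replicate 3 gave 6, and auxin replicate 2 gave 9. Again the calls over all genes in these fits are not given here, and a general loss of calls cannot be told apart. The calls of mrpl-9, mrps-2 and mrps-17 held in each of the 14 alternatives run for this strain, and over these the log2 changes of the 10 genes stayed between 0.63 (mrps-27) and 1.59 (mrps-2). Depth differed between the groups, with 2031037 to 2993987 protein-coding counts in ethanol and 4229644 to 8526501 in auxin, and with all libraries thinned to the smallest 9 members were higher, 9 of them among the 10.

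Over the family the shift in the GRWD-1 strain was seen in both subunits. The median log2 change was 0.46 for mrpl and 0.46 for mrps, against -0.00 for all genes tested, and 60 of 70 members had a positive change, beside 49.9% of all genes. In 38 members every auxin library was above every ethanol library, beside 13.3% of all genes, and in 2 every one was below, beside 11.3%. Among members at a mean of at least 10 CPM the largest downward values were those of mrpl-30 (-0.56), mrps-34 (-0.37), mrps-12 (-0.26), whose bacterial counterpart lies at the decoding site, and mrpl-32 (-0.17), and their adjusted p ran from 0.446 to 0.859. The value of mrpl-32 turned positive without auxin replicate 2 or ethanol replicate 3.

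Summed over the family, the level in the GRWD-1 strain went from 3431 ± 53.0 to 4846 ± 144 CPM (SD, n = 3 and 3), a ratio of 1.41. The groups were far apart. The ratio was 1.35 for mrpl and 1.49 for mrps, so that mrpl over mrps went from 1.30 ± 0.0321 to 1.18 ± 0.0202. That quotient was 1.29 ± 0.0493 and 1.31 ± 0.00719 in RPOA-2 ethanol and auxin (n = 4 and 4), and 1.36 ± 0.0956 and 1.38 ± 0.0197 in TSR-2 (n = 2 and 3), with groups that overlap in both strains. The TSR-2 quotients rest on fractional counts, in which mrpl-44 counts 3.44 times as high, so they cannot be set against those of the other strains. In the RPOA-2 strain the sum was 3859, 3081, 3582 and 3707 CPM in ethanol and 3839, 4470, 4196 and 4277 CPM in auxin, and auxin replicate 1 fell within the range of the controls. In the TSR-2 strain it was 3427 and 3386 CPM in ethanol and 4967, 4278 and 4956 CPM in auxin, with no overlap.

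**Figure D3:**
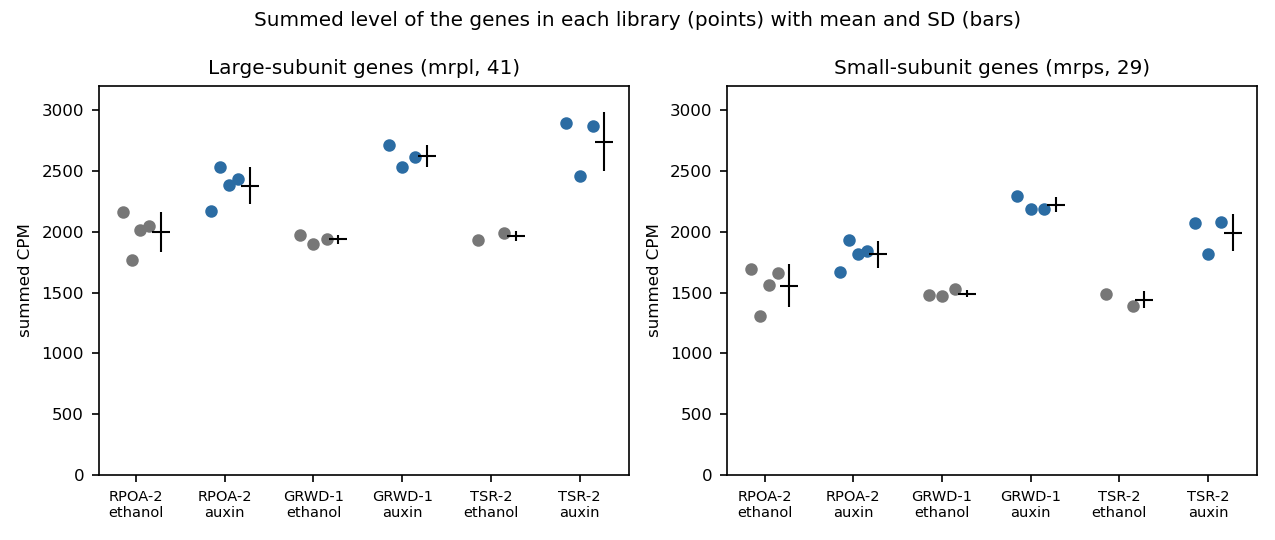
Summed CPM of the large-subunit (left) and small-subunit (right) genes in each library, by strain and treatment, with the mean and SD beside the points. In the GRWD-1 and TSR-2 strains all auxin libraries lie above the ethanol libraries for both subunits, while in RPOA-2 the small-subunit groups overlap and the large-subunit groups lie close, with the lowest auxin library at 2172 CPM and the highest control at 2161 CPM.

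In the TSR-2 strain 1 member, mrpl-9, was higher and 0 were lower, beside 0.532% and 2.02% of 6396 genes tested. mrps-21 was not tested there, having at most 18 counts in any library, so 69 members entered. At an unadjusted p under 0.05, 15 were higher and 1, mrps-34, was lower, beside 5.89% and 10.6% of all genes, and DESeq2 gave 0 higher and 0 lower, beside 0.0938% and 0.297%.

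mrpl-9 stood at 63.7 and 37.2 CPM in ethanol and 157, 113 and 277 CPM in auxin. The highest value belongs to the shallow replicate 3 and rests on 13 counts. Without that library the log2 change was 1.43 and the adjusted p 0.0719 (edgeR), so that 0 members were called, although the remaining auxin values were still above both controls.

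At a mean of at least 10 CPM the next largest upward values were those of mrpl-23 (log2 change 1.098, adjusted p 0.0703), mrps-26 (0.95, 0.143) and mrps-14 (0.91, 0.110, all edgeR), of which none passed. At a mean of at least 10 CPM the largest downward values were those of mrps-34 (-0.92, adjusted p 0.248), mrpl-12 (-0.48, 0.536), mrps-12 (-0.45, 0.689) and mrps-10 (-0.42, 0.751, all edgeR). The value of mrps-12 was 0.097 without ethanol replicate 1. All 4 of these genes were at 0 counts in the shallow library, where a count of 0 allows up to 68.8 CPM before the TMM factor. Over the 69 members the median log2 change was 0.38 (0.37 for mrpl, 0.49 for mrps), against -0.03 for all genes tested, and 0.46 without the shallow library. A total of 53 had a positive change, beside 47.2% of all genes, and in 18 every auxin library was above both controls, beside 12.7%. In 5 members every auxin library was below, beside 19.9% of all genes.

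**Figure D4:**
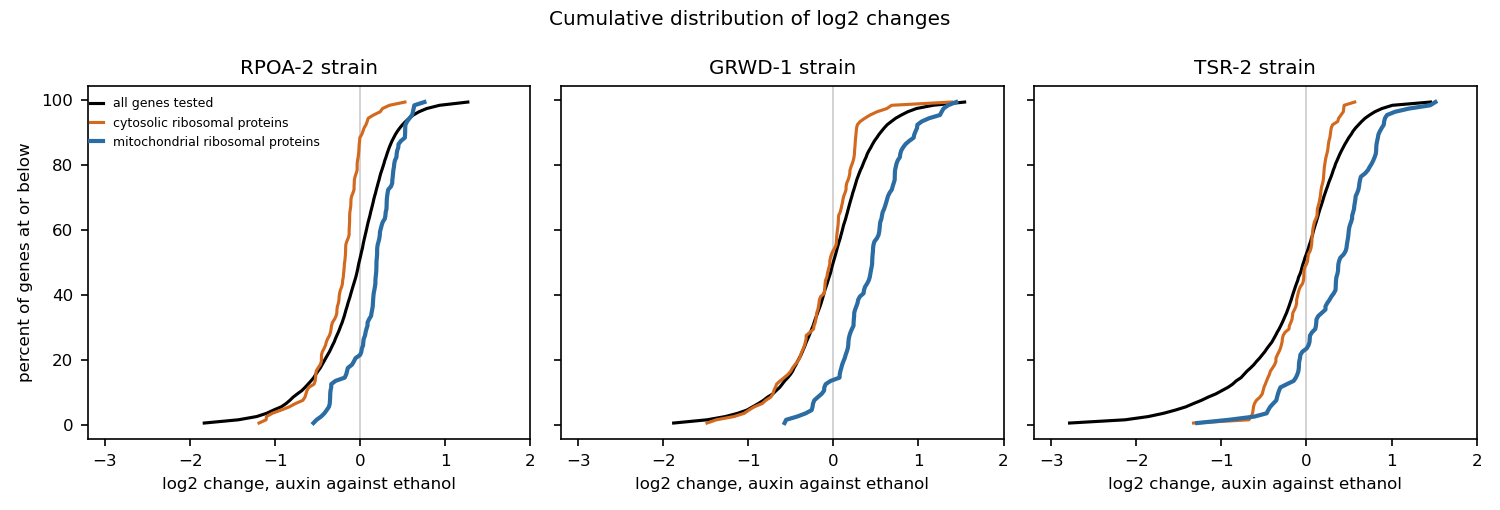
Cumulative distribution of log2 changes (auxin against ethanol) in each strain for the mitochondrial ribosomal protein genes (blue), the cytosolic ribosomal protein genes (orange) and all genes tested (black). The blue curve lies to the right of the black curve over most of its range, with medians of 0.19, 0.46 and 0.38 against -0.01, -0.00 and -0.03.

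Across the strains 45 of 69 members had a positive change in all 3, beside 26.4% of the 6145 genes tested in all 3, 6 a negative change in all 3, beside 24.3%, and 18 mixed signs. The strains do not share control libraries. mrpl-9 was the only member called in each of the 3 strains, beside 0.374% of all genes. mrps-5 was called in both RPOA-2 and GRWD-1, and 11 members were called in at least 1 strain, beside 8.35% of all genes. A total of 15 members, some of them among those 11, kept 1 sign throughout with an unadjusted p under 0.05 in at least 2 strains, beside 12.0% of all genes: mrpl-9, mrps-5, mrps-2, mrps-7, mrps-11, mrps-14, mrps-18A, mrps-26, mrps-27, mrps-30, mrpl-10, mrpl-21, mrpl-23, mrpl-37 and mrpl-47. In mammals the proteins named MRPS30 and MRPS18A lie in the large subunit despite their names. Across the 70 members the log2 changes in RPOA-2 and GRWD-1 had a Spearman's rho of 0.45, against 0.48 over 6847 genes tested in both, as a description over genes.

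**Figure D5:**
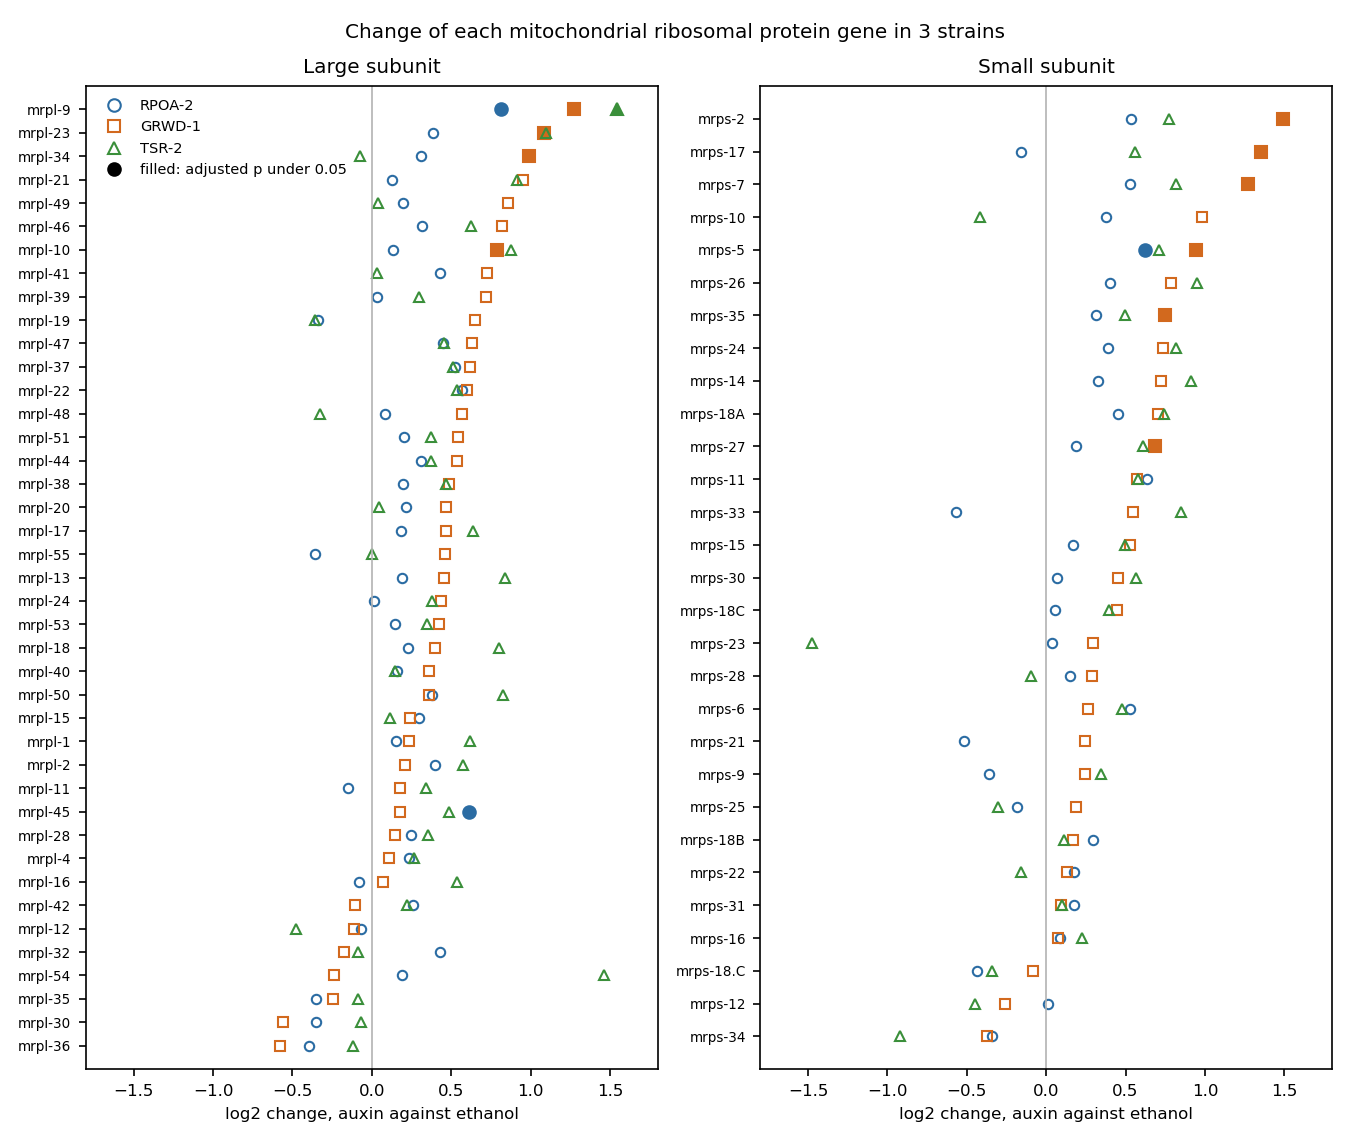
Log2 change of each mitochondrial ribosomal protein gene, auxin against ethanol, in the RPOA-2 (circles), GRWD-1 (squares) and TSR-2 (triangles) strains, ordered by the change in GRWD-1 and split by subunit. Filled symbols have an adjusted p under 0.05: 3 in RPOA-2, 10 in GRWD-1 and 1 in TSR-2, all to the right of 0.

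The difference between strains was tested gene by gene as an interaction. The gene that stood out was mrps-17, which rose in the GRWD-1 strain and had 94.9, 58.3, 85.3 and 91.7 CPM in RPOA-2 ethanol against 61.5, 88.0, 67.8 and 77.5 CPM in RPOA-2 auxin, groups that overlap. Its log2 change in RPOA-2 minus that in GRWD-1 was -1.53 ± 0.261 SE (adjusted p 0.0779, edgeR), which misses the threshold, and 0 of 70 members passed, beside 0.0105% of 9495 genes. This fit does not pair the libraries, and with the replicate numbers of each strain as a block the difference was -1.51 (adjusted p 0.0601) and 0 members passed, beside 0.0211% of genes. The same difference passed with DESeq2 (adjusted p 2.51e-05), where 0.200% of genes passed. It passed in edgeR with RLE size factors (0.0225), with total counts (0.0177) and with no low-count filter (0.00203). It also passed without RPOA-2 auxin replicate 2 or without RPOA-2 ethanol replicate 2. Over the 19 alternatives of this difference the adjusted p ran from 2.51e-05 to 0.333, and the sign was negative in each.

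At an unadjusted p under 0.05, 11 members differed between RPOA-2 and GRWD-1, beside 4.61% of genes, 10 of them with the larger change in GRWD-1 and 1, mrpl-45, with the larger in RPOA-2. The next after mrps-17 were mrps-2 (-0.99 ± 0.286 SE, adjusted p 0.939) and mrpl-19 (-1.02 ± 0.318 SE, adjusted p 1.00, edgeR). The median difference was -0.31 for members and 0.01 for all genes. Between RPOA-2 and TSR-2 the medians were -0.18 for members and 0.20 for all genes, and between GRWD-1 and TSR-2 0.05 and 0.13. Between RPOA-2 (replicates 1 to 3) and TSR-2, 0 members passed with edgeR, beside 0.0271% of genes, and 0 with DESeq2. At an unadjusted p under 0.05 (edgeR) 2 differed, mrpl-10 and mrpl-23, beside 6.55% of genes. Between GRWD-1 and TSR-2, 0 passed with edgeR, beside 0.00% of genes, and 0 with DESeq2. At an unadjusted p under 0.05 (edgeR) 4 differed, beside 4.39%, among them mrpl-34 (1.07 ± 0.330 SE) and mrps-10 (1.40 ± 0.512 SE).

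The cytosolic ribosomal protein genes, from a second ribosome in the same cells, had medians at or below 0.01. Their median log2 change was -0.18 in RPOA-2, -0.04 in GRWD-1 and 0.01 in TSR-2. A positive change was seen in 9 of 80, 37 of 80 and 40 of 79 tested, beside 48.4%, 49.9% and 47.2% of all genes. In the GRWD-1 strain 1 of 80 tested was higher, rpl-11.2 (log2 change 1.84, adjusted p 0.00309), and 6 were lower, among them rps-20 (-1.42, adjusted p 0.00458, edgeR) and rpl-12 (-1.16, adjusted p 0.00539, edgeR). In RPOA-2 0 were higher and 4 lower, and in TSR-2 0 higher and 1 lower (edgeR). Of all genes tested, 2.56%, 1.21% and 0.532% were higher in RPOA-2, GRWD-1 and TSR-2, and 1.22%, 1.48% and 2.02% lower. At an unadjusted p under 0.05, 1 was higher and 19 lower in RPOA-2, 2 higher and 16 lower in GRWD-1, and 1 higher and 8 lower in TSR-2. The shares of all genes at that level were 11.9%, 9.18% and 5.89% higher, and 7.33%, 8.59% and 10.6% lower (edgeR).

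Messages encoded by mitochondrial DNA, which the mitochondrial ribosome translates, had mostly lower values in auxin. The 12 genes were taken by chromosome, since most appear in the tables by identifier. Their median log2 change was -0.51 in RPOA-2, -0.97 in GRWD-1 and -0.71 in TSR-2, and 3, 0 and 0 of 12 were positive. With each library left out the median ran from -0.80 (without auxin replicate 3) to -0.20 (without ethanol replicate 1) in RPOA-2, where it was -0.26 without auxin replicate 1, and from -1.54 (without auxin replicate 1) to -0.56 (without ethanol replicate 1) in GRWD-1, where it was -0.64 without auxin replicate 2. In RPOA-2 0 of 12 passed (edgeR), 5 were lower at an unadjusted p under 0.05, and DESeq2 gave 2 lower. Of all genes tested there, 1.22%, 7.33% and 3.25% were lower in these 3 ways. In GRWD-1 2 were lower, WBGene00000829 (1037 ± 331 CPM in ethanol, 318 ± 141 CPM in auxin, log2 change -1.71, adjusted p 0.0140) and WBGene00010963 (-1.70, adjusted p 0.0314, edgeR), beside 1.48% of all genes. With the replicate block 9 were lower, beside 6.85% of all genes in that fit, and 7 were lower with no filter and 1 with the fractional table. Without ethanol replicate 1, ethanol replicate 2 or auxin replicate 3 that number was 0, and without auxin replicate 2 or ethanol replicate 3 it was 1. In TSR-2 2 were lower, but 0 without ethanol replicate 2 or auxin replicate 3, 1 without auxin replicate 2 and 8 without ethanol replicate 1, and 0 with DESeq2, 4 with RLE size factors. The TSR-2 median became 0.18 without ethanol replicate 2 and -1.20 without ethanol replicate 1. Of all genes tested in TSR-2, 2.02% were lower with edgeR and 0.297% with DESeq2. For the other settings in this paragraph the share of all genes called is not given here.

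Among the other nuclear genes of mitochondrial translation, the only calls were 3 of 11 translation and assembly factors, higher in RPOA-2. Of all genes tested there, 2.56% were higher (edgeR). Of 21 listed translation and ribosome assembly factors 11 were matched by symbol and tested, and 3 were higher in RPOA-2: gfm-1, a mitochondrial elongation factor (209 ± 21.0 CPM in ethanol, 318 ± 38.4 CPM in auxin, log2 change 0.61, adjusted p 0.0207), noa-1, a GTPase of mitochondrial ribosome assembly (0.63, adjusted p 0.0384), and mma-1, the worm counterpart of mammalian LRPPRC (0.50, adjusted p 0.0323, all edgeR). In GRWD-1 and TSR-2 0 of these 11 passed in either direction, with 4 higher and 2 lower in GRWD-1 and 3 higher and 2 lower in TSR-2 at an unadjusted p under 0.05. One of the lower genes in TSR-2 is era-1 (log2 change -0.68), which matches the list by symbol but may not be the worm counterpart of the mammalian assembly factor ERAL1. Of 19 listed mitochondrial or dual aminoacyl-tRNA synthetases 16 were tested and 0 passed in any strain, with 4, 3 and 1 higher and 0, 0 and 1 lower at an unadjusted p under 0.05. Of 5 genes of mitochondrial DNA expression and maintenance 0 passed in any strain, with 1 higher in RPOA-2, 1 lower in RPOA-2 and 1 higher in GRWD-1 at that level. Of all genes tested, 11.9%, 9.18% and 5.89% were higher at that level in RPOA-2, GRWD-1 and TSR-2, and 7.33%, 8.59% and 10.6% lower (edgeR).

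Of 12 genes of mitochondrial stress and quality control, 11, 11 and 10 were tested in RPOA-2, GRWD-1 and TSR-2, with median log2 changes of -0.21, -0.16 and -0.29. Only 1 passed in any strain, the mitochondrial chaperonin hsp-60, which fell from 2007 ± 189 to 857 ± 37.5 CPM in GRWD-1 (log2 change -1.23, adjusted p 0.00342, edgeR), where 1.48% of all genes were lower. At an unadjusted p under 0.05, 1, 1 and 0 were higher and 2, 3 and 4 lower, beside 7.33%, 8.59% and 10.6% of all genes lower and 11.9%, 9.18% and 5.89% higher.

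Markers of cells that a dissected gonad may carry along also had different levels. The 8 intestine markers, of which 7, 5 and 3 were tested, had median log2 changes of -1.24, -1.16 and -0.91 in RPOA-2, GRWD-1 and TSR-2. Their summed level was 1459 to 33374 CPM in RPOA-2 ethanol and 544 to 18547 CPM in auxin, 686 to 3977 and 370 to 1523 CPM in GRWD-1, and 872 to 1460 and 191 to 709 CPM in TSR-2. None of them passed the test (0 of 7, 0 of 5 and 0 of 3, edgeR), with 0, 0 and 2 lower at an unadjusted p under 0.05. The 7 markers of gonadal sheath and somatic gonad summed to 94.4 to 170 CPM in RPOA-2 ethanol and 65.1 to 137 CPM in auxin, 44.6 to 64.2 and 23.9 to 59.96 CPM in GRWD-1, and 58.3 to 86.7 and 28.3 to 42.8 CPM in TSR-2. Of these, 5, 3 and 2 were tested, with median log2 changes of -0.70, 0.01 and -1.23. None passed (edgeR), and 0, 0 and 2 were lower at an unadjusted p under 0.05. Body wall muscle, hypodermis, neuron and sperm markers summed to at most 207, 27.4, 71.7 and 46.3 CPM in any GRWD-1 library, and the sperm marker ssp-10 was at 0 in all of them. The median log2 change of the 6 muscle markers was 0.74 in that strain, with 0 passing (edgeR) and 1 higher at an unadjusted p under 0.05. In RPOA-2 the muscle sum was 204 to 1584 CPM in ethanol and 246 to 479 CPM in auxin, and the hypodermis sum 47.8 to 948 and 19.002 to 342 CPM. In TSR-2 the 4 sums were at most 238, 42.3, 82.3 and 19.5 CPM in any library. The part of these cells in the changes of the mitochondrial ribosomal protein genes was not tested.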

How the data were processed

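Total RNA libraries were made with a stranded kit and PCR, per the labels' protocols. Per the submitters' processing notes the tools were Trim Galore 0.6.10, HISAT2 2.2.1, Picard and featureCounts 2.0.6 with build WBcel235. The authors deposited whole-number counts of protein-coding genes, without normalization, for 14 libraries of the RPOA-2 and GRWD-1 strains. The authors also deposited a table of estimated counts without normalization for 17 libraries, in which a read with several mapping positions is shared between them. TSR-2 is in the second table only, and those values were rounded to whole numbers. Levels were not compared across the tables, apart from the ratio of fractional to unique count. Symbols and coordinates, counted from 1, come from Ensembl release 115 of WBcel235. No sequences are shown. All sample columns were used.

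Auxin was compared with ethanol within each strain with edgeR 4.0.16 (R 4.3.3): filterByExpr, TMM, quasi-likelihood F test, Benjamini-Hochberg adjustment over all genes tested, adjusted p under 0.05. SE was taken as |log2 change| divided by the root of F. Interactions were contrasts of a joint group-means fit, and those with TSR-2 used the fractional table. CPM were scaled by TMM. Fits were tested on simulated data. No libraries within a group were identical.

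Named members were those called in any strain, the 4 largest rises and falls per strain at a mean of at least 10 CPM, the 4 highest and 4 lowest levels, the 3 smallest interaction p-values per pair of strains, those not tested, and those of 1 sign in all strains with an unadjusted p under 0.05 in at least 2. natc-1 and mrpl-4 were added after their values were seen. Members, gene lists and tests were chosen with earlier results of these data known.

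In RPOA-2 and GRWD-1, libraries with the same number were taken as pairs for the replicate block, while the main tests were unpaired. Gene-wise deviations from group means correlated within every such pair, at 0.179 to 0.294 and 0.245 to 0.455. In RPOA-2 ethanol replicate 1 with auxin replicate 3 reached 0.307, and ethanol replicate 2 with auxin replicate 4 reached 0.234. The other unmatched RPOA-2 pairs were at 0.123 or lower, so the correlations do not settle the pairing in that strain. Other settings were the replicate block, no filter, DESeq2 1.42.0, scaling by RLE factors or by total counts, one fit of all groups, the fractional table, replicates 1 to 3 of RPOA-2, a block of adjacent TSR-2 library numbers, and each library left out. Thinning to the smallest library (in TSR-2 without auxin replicate 3), recomputing the mitochondrial DNA genes, and the replicate block in the difference between RPOA-2 and GRWD-1, were added after seeing the data.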

Additional observations from a re-analysis of the deposited data

Results flagged for a closer look

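In the RPOA-2 strain, whose groups hold 4 libraries, 78 sets of values (each named member and the summed levels, per group) were examined for a library far from the other 3, and 3 were found, fewer than the 1 in 20 that chance gives. mrpl-45 in auxin replicate 3 was low, at 204 CPM against 234 to 240 CPM in the other auxin libraries. mrps-27 in ethanol replicate 2 was low, at 60.5 CPM against 83.8 to 84.9 CPM. mrps-27 in auxin replicate 4 was low, at 74.96 CPM against 92.9 to 95.3 CPM.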

How the results depend on the processing

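The number of members called depended on the setting, while 0 members were called lower in each strain under each alternative run. The RPOA-2 count of 3 became 0 with the fractional table (where only replicates 1 to 3 enter) and 0 to 3 with each library left out. The GRWD-1 count of 10 became 27 with the replicate block and 3 to 9 with each library left out. The TSR-2 count of 1 became 0 with DESeq2, 2 with no low-count filter, 0 with thinned counts and 0 to 3 with each library left out. The replicate block changed no call of a member in RPOA-2 (3 higher) or TSR-2 (1 higher). In TSR-2 the numbers do not pair the libraries (correlations -0.183 and -0.0555), and with adjacent library numbers as a block the count stayed 1 and the median of the members was 0.27. The count of members differing between RPOA-2 and GRWD-1 became 1, mrps-17, with DESeq2, RLE size factors, total counts and no filter, and 0 to 1 with each library left out. With DESeq2 0.200% of all genes passed. The count of members stayed 0 with the replicate block. For most settings in this paragraph the share of all genes called is not given here. Their counts alone do not separate a loss among members from a general one.

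The median log2 change of the members stayed positive in all alternatives run: with each library left out it was 0.11 to 0.23 in RPOA-2, 0.41 to 0.51 in GRWD-1 and 0.33 to 0.46 in TSR-2. The median of all genes moved to -0.11 with the fractional table in RPOA-2, -0.18 with no filter in RPOA-2, and -0.10, -0.11, -0.26 and -0.58 with RLE factors, DESeq2, all groups in one fit and no filter in TSR-2.

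Some values of members that were not called changed sign, and the cause was not tested. With each library left out, mrpl-21 in RPOA-2 was -0.048 to 0.31 (negative without auxin replicate 2 or ethanol replicate 4), mrps-30 in RPOA-2 -0.057 to 0.094 (negative without auxin or ethanol replicate 2), mrpl-32 in GRWD-1 -0.49 to 0.23 (positive without auxin replicate 2 or ethanol replicate 3), mrpl-34 in TSR-2 -0.13 to 0.048 and mrps-12 in TSR-2 -1.103 to 0.097 (both positive without ethanol replicate 1). mrpl-21 in RPOA-2 was -0.013 with replicates 1 to 3, and mrps-30 in RPOA-2 was -0.064 with thinned counts. Fits with 1 library in a group assume that it varies like the other group. The depth of TSR-2 auxin replicate 3 limits every TSR-2 value of a gene under the floor of 68.8 CPM, which leaves out the TMM factor.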

Other observations

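The 22 members that begin within 150 bases of, or inside, an upstream gene on the same strand can be set beside that gene, and both were tested in 21 pairs per strain. The median log2 change was 0.19 for the members and 0.01 for the upstream genes in RPOA-2, 0.46 and 0.10 in GRWD-1, and 0.61 and 0.27 in TSR-2. In GRWD-1 4 of these members and 1 of the upstream genes, the member mrps-2 itself, were called, all higher, beside 1.21% of all genes. In RPOA-2 1 of these members and 1 of the upstream genes, prmt-5, were called, both higher, beside 2.56% of all genes. In TSR-2 0 members and 0 upstream genes of these pairs were called. In no strain was there a pair with both called. The difference between the pair was not tested.

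Mitochondrial ribosomal RNA, which assembles with these proteins, was read from the fractional table and scaled to protein-coding counts as for CPM. The large rRNA stood at 12240, 4343 and 5367 in GRWD-1 ethanol and 9357, 2341 and 5606 in GRWD-1 auxin. The small rRNA stood at 17330, 10418 and 8504 in GRWD-1 ethanol and 13105, 6463 and 7524 in GRWD-1 auxin. In RPOA-2 (replicates 1 to 3) the large rRNA stood at 12829, 7046 and 8606 in ethanol and 5199.9, 8735 and 10199.7 in auxin, and the small rRNA at 17171, 9258 and 11763 in ethanol and 8258, 11066 and 13027 in auxin. In TSR-2 the large rRNA stood at 2457 and 8635 in ethanol and 8307, 3082 and 5249 in auxin, and the small rRNA at 8607 and 14195 in ethanol and 12392, 7944 and 7930.2 in auxin. The groups overlap for both molecules in each of the 3 strains.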
